A study of Mus musculus with 61 samples.

Results

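Lad1, Stap1, Niban1, Ms4a4b, Igfbp7, Utf1 and Itm2a are 7 mouse genes whose transcripts were lower in CD4 T cells stimulated with the cytokine IL-27 than in control cells. They were chosen by values of this data set, as genes among the largest or steadiest differences below control over the time course, so on the arrays that chose them the differences between arms are given as descriptions with a standard error and no test. On these arrays they are measured by 11 of 22626 probe sets, or 7 of the 12291 genes that have a probe set of their own. Probe sets of the same gene are described apart.

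The cells were naive CD4 T cells from C57BL/6 mice, cultured with an antibody to CD3 at 1 µg/ml and a second antibody that the labels write as anti-CD8, and the study's title places them in the differentiation of type 1 regulatory (Tr1) T cells. IL-27 was used at 25 ng/ml, and the 2 arms are called IL27 and ctrl after the array titles. The labels attach the same protocol and the same name of Tr1 cells to every array, ctrl included, so the arm was taken from the title. Each arm has 26 HT_MG-430A arrays over 18 times, 0.5 to 72 h: duplicates at 8 of these times and a lone array at the remaining 10. Hours are assumed, since the labels give no unit. The Mouse430A_2 arrays number 9, with ctrl alone at 0 h, both arms at 4, 16 and 48 h, and arrays titled GFPP and GFPN at 48 h, names that the labels do not explain. Age, sex and number of mice are not stated in the labels, and nothing says whether arrays of the same arm and time came from separate cultures, so the spread may be technical.

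IL-27 is a heterodimer that signals through a receptor of Il27ra and the shared chain gp130 (Il6st), and JAK kinases there activate transcription factors, STAT3 among them. In naive CD4 T cells it induces Tbx21, Socs3 and, with time, Il10, and it is known to restrain some other helper programs. The 7 genes belong to no common pathway. Lad1 encodes ladinin, a protein of the anchoring filaments that hold epithelium to its basement membrane. Stap1 is an adaptor with an SH2 domain that is phosphorylated by tyrosine kinases in lymphocytes. Niban1 (Fam129a) takes part in the stress response and the control of translation. Ms4a4b is a membrane protein of the family of the B cell antigen CD20 and is expressed in T cells. Igfbp7 is a secreted protein that binds insulin-like growth factors weakly, Utf1 is a chromatin factor best known from pluripotent stem cells, and Itm2a is a transmembrane protein of activated T cells and developing muscle and cartilage.

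The genes lie apart in the genome. In GRCm38.p6, Lad1 is at chr1:135818598-135833341 and Niban1 at chr1:151571373-151721432, both on the plus strand, and Stap1 is at chr5:86071584-86106125. Igfbp7 is at chr5:77349240-77408045 on the minus strand, Utf1 at chr7:139943856-139945112, Ms4a4b at chr19:11443558-11463549, and Itm2a at chrX:107397195-107403360 on the minus strand. RefSeq promoter sequence was at hand for 6 of the 7, Stap1 being the exception. The 250 bases before the start are shown for 3 genes with different courses: Lad1, which came up in both arms and went back with IL-27, Igfbp7, which came up late in control cells, and Ms4a4b, which was high at the start and dipped. Capitals mark matches to the motifs named after the sequences, on either strand.
Lad1, chr1:135818348-135818597, plus strand: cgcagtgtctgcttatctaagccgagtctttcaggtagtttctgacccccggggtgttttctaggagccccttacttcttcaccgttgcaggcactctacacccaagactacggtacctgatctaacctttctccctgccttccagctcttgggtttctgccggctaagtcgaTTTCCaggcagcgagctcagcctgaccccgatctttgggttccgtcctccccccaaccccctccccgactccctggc
Igfbp7, chr5:77408046-77408295, minus strand: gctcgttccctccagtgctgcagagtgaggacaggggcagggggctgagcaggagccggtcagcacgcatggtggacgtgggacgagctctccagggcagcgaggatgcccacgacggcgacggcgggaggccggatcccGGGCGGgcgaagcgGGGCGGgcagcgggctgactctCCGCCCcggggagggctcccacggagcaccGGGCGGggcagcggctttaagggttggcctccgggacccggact
Ms4a4b, chr19:11443308-11443557, plus strand: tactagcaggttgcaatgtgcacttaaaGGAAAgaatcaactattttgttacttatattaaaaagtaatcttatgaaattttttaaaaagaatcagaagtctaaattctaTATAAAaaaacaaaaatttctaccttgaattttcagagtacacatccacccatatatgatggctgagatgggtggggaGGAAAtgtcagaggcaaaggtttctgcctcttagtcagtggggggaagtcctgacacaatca

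The windows differ in composition: 57.6% of the bases before Lad1 are G or C, 74.0% before Igfbp7 and 34.4% before Ms4a4b, against a mean of 53.2% over all 32851 promoter windows of the same length. The STAT motif TTCNNNGAA was found in 0 of the 6 member windows and in 7.02% of all windows, and the AP-1 motif TGANTCA in 0 of 6 and in 6.75%. GGAAA, the core of NFAT sites, was found before Lad1 (as TTTCC, 77 bases from the start), at 2 places before Ms4a4b, and in 5 of the 6 in all, against 55.6% of all windows. GGGCGG, the GC box, occurred at 4 places before Igfbp7 and in 4 of the 6 windows, against 32.7% of all. TATAAA occurred before Ms4a4b alone, 140 bases from the start, and in 12.4% of all windows. These are matches of letters and not binding sites.

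Median intensities of arrays were 28.0 to 36.6 (HT_MG-430A) or 70.7 to 78.9 (Mouse430A_2), and no array pair held identical values. The number of arrays limits the precision. The ctrl array at 12 h stood apart: it correlated with its best partner among the HT_MG-430A arrays at 0.842, and every other array did so at 0.976 or more. On Mouse430A_2 the ctrl array at 0 h had 0.801, the others at least 0.974. Differences of the middle window, changes in control cells and correlations over times, which hold the 12 h pair, are also given without it. As a check of the labels, the IL-27 response gene Socs3 was higher in the IL27 arm late, by 1.88 ± 0.18 (log2, SE; probe set 1416576_at; limma adjusted p = 2.6e-10), and Tbx21 from 8 to 20 h, by 2.95 ± 0.24 (limma adjusted p = 5.1e-11; 2.96 and 3.0e-10 without 12 h). Of the 10 probe sets of listed IL-27 response genes that passed the filter, 4 were called higher late and 0 lower (7.39% and 7.99% of probe sets tested). Tbx21 and Irf1 were not called late, with 0.43 and -0.36 (limma adjusted p = 0.17 and 0.081). Of the CD4 T cell markers, 9 of 10 genes were measured and all 9 passed the filter.

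The member genes differed between the arms in 3 ways. Lad1 came up in both arms within 4 to 8 h and then declined with IL-27 while it persisted in control cells. Igfbp7 came up after 25 h in control cells and stayed near its starting level with IL-27. Stap1, Niban1, Ms4a4b and Itm2a were lowest relative to control between 12 and 30 h and moved back towards control by 72 h, and Utf1, which peaked at 8 h in both arms, declined sooner with IL-27. Of the 11 member probe sets 8 passed the filter on low values, those of Igfbp7 being the ones that did not. Among the 8, IL27 lay below ctrl at all 18 times for Stap1 only (1 of 8; 0.570% of the 10521 probe sets tested) and at all 8 late times (25 to 72 h) for 6 (6.43% of those tested). The median late difference of the 8 was -0.81 on the log2(intensity + 32) scale, against -0.01 over all probe sets tested. These counts describe how the members were chosen and support nothing further.

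**Figure D1:**
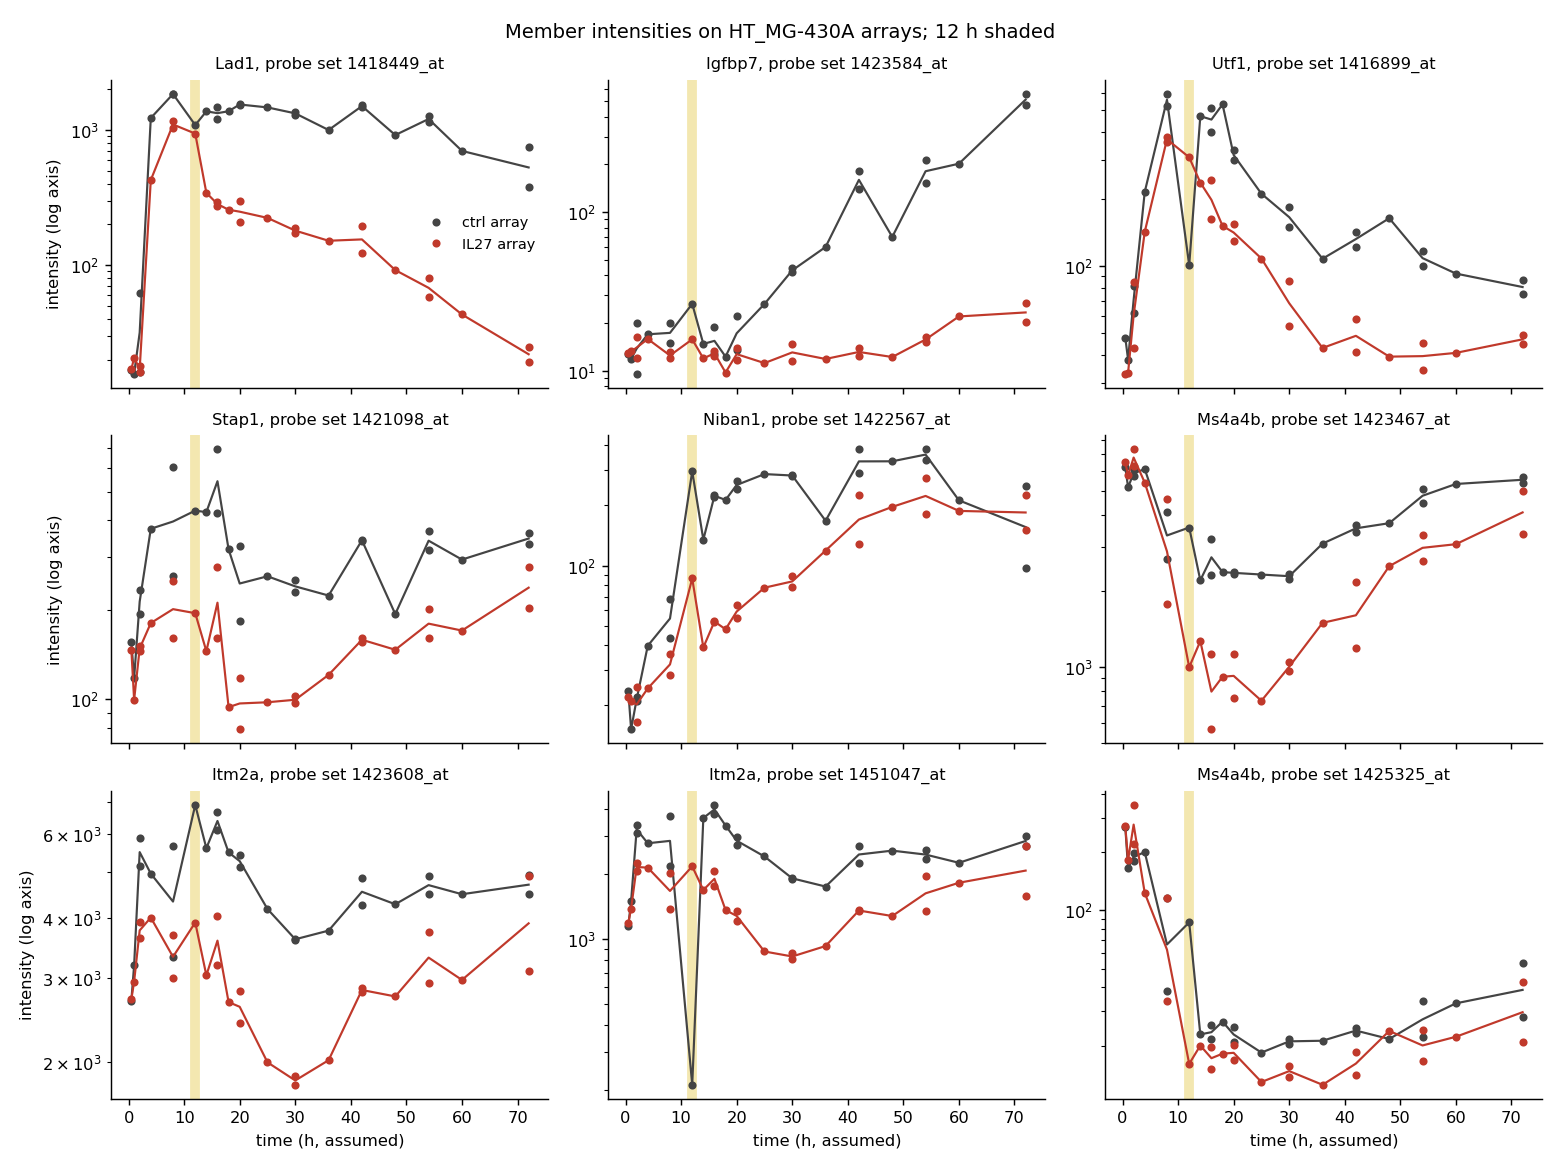
Intensity (log axis) against time (h) for 9 member probe sets on HT_MG-430A; each point is 1 array, lines join the geometric means of the arrays at a time, dark for ctrl and red for IL27, with 12 h shaded. Lad1 is lower with IL27 from 4 h on, least so at 12 h, Igfbp7 separates after 25 h, and the lower panels converge towards 72 h; at 12 h the ctrl array is low for Utf1 (101) and for Itm2a probe set 1451047_at (212).

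Lad1 (probe set 1418449_at) was at the level of the weakest probe sets in the first 2 hours. Ctrl intensities were 16.8 at 0.5 h, 15.7 at 1 h, and 62.1 and 16.2 on the 2 arrays at 2 h. They read 1225 at 4 h and 1842 and 1845 at 8 h. IL27 arrays read 426 at 4 h and 1173 and 1027 at 8 h, so the transcript was induced in both arms and reached less with IL-27. From then on the arms parted. Ctrl arrays from 8 to 20 h ran from 1087 over a median of 1478 to 1845, and IL27 arrays from 208 over 297 to 1173, with the highest IL27 values at 8 and 12 h. In the late window the ctrl arrays ran from 375 over 1207 to 1536 and the IL27 arrays from 19.3 over 108 to 223, with no overlap. That made Lad1 the only member whose 12 late IL27 arrays all lay below the 12 late ctrl arrays (0.352% of probe sets tested). In the middle window no member did so over all arrays (0.143%), the lowest Lad1 ctrl array being that at 12 h. Without the 12 h pair 2 of the 8 did (0.181%), Lad1 with at least 1198 in ctrl and at most 1173 with IL27, and Itm2a 1451047_at. At 72 h the IL27 arrays, 24.8 and 19.3, were back near the values of the first hour, when the ctrl arrays stood at 742 and 375.

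On the log2(intensity + 32) scale the Lad1 difference was -0.45 ± 0.26 (SE) early (0.5 to 4 h, 5 arrays per arm), -1.67 ± 0.19 in the middle window (8 to 20 h, 9 arrays per arm) and -3.06 ± 0.17 late (12 arrays per arm). The late mean of ctrl was 1106 ± 363 (SD, n = 12) and that of IL27 114 ± 71.0 (SD, n = 12), a ratio of 9.69. Among all probe sets tested it had rank 2 for the size of the fall in the middle and late windows. The lowest single difference, -3.63, came at 54 h. At 4 h, at 8 h and at every time from 14 h on, the difference was more than 2 SD of duplicate arrays (0.28), -1.46 and -0.73 at the first 2 of these, whereas at 12 h it was only -0.20, the ctrl array there reading 1087 and the IL27 array 940. Without the 4 h arrays the early difference was -0.19.

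Igfbp7 was measured by 3 probe sets, and only 1423584_at followed the arms. Its ctrl intensities stayed between 9.54 and 26.4 until 25 h. They then read 44.1 and 41.8 at 30 h, 60.3 at 36 h, 182 and 141 at 42 h, 69.8 at 48 h, 214 and 154 at 54 h, 202 at 60 h, and 557 and 473 at 72 h. IL27 arrays stayed between 9.73 and 26.9 at all times. In the late window the groups touched at their edges, since the highest IL27 array (26.9, at 72 h) lay above the lowest ctrl array (26.3, at 25 h), while at each of the 8 late times IL27 was below ctrl. The late difference was -1.78 ± 0.16 (SE) on the log2(intensity + 32) scale, from means of 180 ± 170 (SD, n = 12) in ctrl and 15.7 ± 4.91 in IL27. The early and middle differences were -0.00 ± 0.24 and -0.14 ± 0.18. The added 32 exceeds the IL27 level, so the late value depends on it: it was -2.92 with 1 added and -1.07 with 100.

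The other Igfbp7 probe sets gave no such course. Probe set 1423585_at read 7.07 to 9.62 on the late ctrl arrays and 7.03 to 8.66 on the late IL27 arrays, a difference of -0.02 ± 0.02 (SE). Probe set 1437804_at read 18.1 to 32.9 and 17.2 to 28.5, a difference of -0.03 ± 0.05. The late signal of Igfbp7 in control cells therefore rests on 1 of its 3 probe sets. All 3, and both of Itm2a, take their gene name from the annotation table of the Mouse430A_2 array, which lists the same probe sets.

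Utf1 (1416899_at) came up and went down in both arms. Ctrl arrays read 47.8 at 0.5 h and 38.2 at 1 h, then 526 and 592 at 8 h, 532 at 18 h, and 86.9 and 74.9 at 72 h. IL27 arrays read 32.9 and 33.3 at the first 2 times, 381 and 361 at 8 h, 152 at 18 h, and 49.3 and 44.8 at 72 h. The highest mean thus lay at 8 h in both arms, and control cells kept it to 18 h. Late ctrl arrays ran from 74.9 over 120 to 211 and late IL27 arrays from 34.4 over 45.1 to 108, so the groups overlapped, although IL27 was lower at all 8 late times. The late difference was -0.91 ± 0.14 (SE) on the log2(intensity + 32) scale and the middle one -0.71 ± 0.16. At 12 h the ctrl array read 101 and the IL27 array 308, which gave 1.35 in the opposite direction, the only such time of 18. Without the 12 h arrays the middle difference was -0.97.

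Stap1 (1421098_at) was detected from the start and was lower with IL-27 at every time, though not always by much. The difference was beyond 2 SD of duplicate arrays (SD 0.34, log2 scale) at 13 of the 18 times. At 0.5, 1 and 48 h, with 1 array per arm, it was -0.07, -0.19 and -0.34. Ctrl arrays went from 155 at 0.5 h to 375 at 4 h and to 424 and 693 at 16 h. IL27 arrays went from 147 to 180 and then to 160 and 278 at the same times. The fit gave -0.42 ± 0.17 (SE) early, -1.15 ± 0.13 in the middle window and -0.80 ± 0.11 late on the log2(intensity + 32) scale, and the lowest value, -1.48, came at 18 h. The duplicates spread widely at 8 h, where the ctrl arrays read 260 and 605 and the IL27 arrays 161 and 250. The array with the title suffix d was the lower in both arms at that time and at 4 of the other duplicated times, 16 and 20 h among them, the higher in both at 2, and opposite at 1. Duplicates thus differed in the same direction in both arms at 7 of 8 times, and the SD of duplicates holds that shared shift. Late ctrl arrays ran from 193 over 306 to 368 and IL27 arrays from 96.9 over 158 to 278, overlapping groups. IL27 arrays were lowest at 18 to 30 h, between 79.0 and 118, and stood at 278 and 202 at 72 h.

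Niban1 (1422567_at) came up in both arms, later with IL-27. Ctrl arrays were between 15.2 and 39.7 up to 4 h and read 135 at 14 h, 242 and 265 at 20 h, and 381 and 339 at 54 h. IL27 arrays read 39.0 at 14 h, 54.5 and 63.8 at 20 h, and 275 and 181 at 54 h. The middle difference was -1.30 ± 0.17 (SE) on the log2(intensity + 32) scale, from means of 190 ± 87.8 (SD, n = 9) in ctrl and 51.2 ± 17.0 in IL27. The late difference was -0.68 ± 0.14. By 60 h the ctrl array read 212 and the IL27 array 188. At 72 h the order had changed, with 250 and 97.3 in ctrl against 225 and 151 in IL27, a difference of 0.18 with duplicates that far apart. Niban1 was thus below control at 7 of the 8 late times.

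Ms4a4b (1423467_at), with a high signal at the start, dipped and returned in both arms, and the dip was deeper with IL-27. Ctrl arrays read 6211 at 0.5 h, 2210 at 14 h, and 5695 and 5402 at 72 h. IL27 arrays read 6507 at 0.5 h, 1266 at 14 h, 565 and 1126 at 16 h, 733 at 25 h, and 3378 and 5009 at 72 h. At 0.5, 1 and 2 h the IL27 arrays were the higher, by 0.07 to 0.21 on the log2(intensity + 32) scale, which is within the duplicate SD of 0.39. The differences of the windows were 0.09 ± 0.23 (SE) early, -1.17 ± 0.17 middle and -0.90 ± 0.15 late. At 8 h the arrays with the suffix d read 4645 with IL27 and 4120 in ctrl, and those without it 1785 and 2692. Matched by suffix, the arrays at 8 h thus differed in direction. Without the 8 h arrays the middle difference was -1.44. Late ctrl arrays ran from 2238 over 3701 to 5695 and IL27 arrays from 733 over 2343 to 5009, with overlap.

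The other Ms4a4b probe set, 1425325_at, had a far weaker signal that went down in both arms without coming back. It read 270 in ctrl and 271 in IL27 at 0.5 h. From 14 h on the ctrl arrays lay between 18.4 and 53.4 and the IL27 arrays between 12.5 and 42.4. Its differences were 0.10 ± 0.18 (SE) early, -0.25 ± 0.13 middle and -0.18 ± 0.12 late, and the lowest one, -1.30, came from the 12 h pair, without which the middle value was -0.12. From 14 h on the readings were of the size of the array medians and of the added 32, so these differences depend on it: with 1 added they were -0.52 middle and -0.44 late. The weak signal of this probe set does not allow its differences to be set against those of 1423467_at.

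Itm2a was measured by 1423608_at and 1451047_at. The first read 2689 in ctrl and 2704 in IL27 at 0.5 h, and 5866 and 5144 against 3916 and 3628 at 2 h. On the log2(intensity + 32) scale the difference was -0.54 at 2 h, then -0.30 at 4 h and -0.38 at 8 h. The latter 2 were within 2 SD of duplicate arrays (SD 0.22), and from 12 to 60 h the difference was beyond that. Ctrl arrays reached 6102 and 6674 at 16 h, when the IL27 arrays read 3189 and 4036. IL27 arrays were lowest at 30 h, 1869 and 1793, against 3605 and 3618 in ctrl. At 72 h the IL27 arrays read 4897 (suffix d) and 3105 and the ctrl arrays 4913 and 4490. The differences on the log2(intensity + 32) scale were -0.30 ± 0.13 (SE) early, -0.79 ± 0.10 middle and -0.67 ± 0.09 late. The early value rests on the 2 h arrays, without which it was -0.14.

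The second Itm2a probe set had a difference of the same sign as the first at all times but 12 h. Its late ctrl arrays ran from 1757 over 2385 to 3004 and its late IL27 arrays from 807 over 1358 to 2721. Its late difference was -0.81 ± 0.21 (SE), with the lowest time, -1.43, at 25 h as for the first (-1.05). At 12 h the ctrl array read 212, against 2195 to 4193 on the other middle ctrl arrays, while the same array gave 6892 on the first probe set, the highest of any. That turned the 12 h difference to 3.18. Without the 12 h arrays the middle difference of 1451047_at was -1.04 in place of -0.57. Beside it and Utf1, the middle differences moved less without these arrays, to -1.86 for Lad1, -1.16 for Stap1, -1.28 for Niban1, -1.08 for Ms4a4b 1423467_at and -0.79 for Itm2a 1423608_at.

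**Figure D2:**
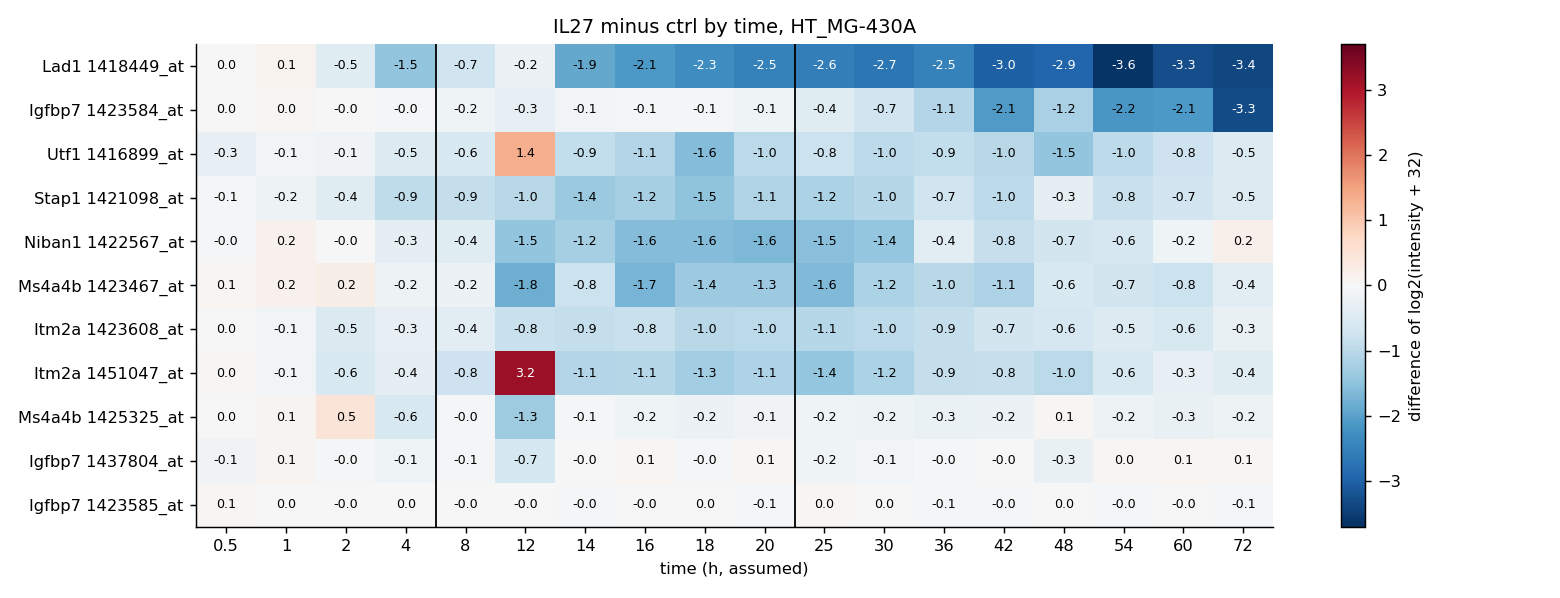
IL27 minus ctrl, as log2(intensity + 32) differences (colour and number), by time (h) for the 11 member probe sets on HT_MG-430A, with lines between the early, middle and late windows. Blue is lower with IL27. Lad1 is lowest at 54 h (-3.63) and Igfbp7 1423584_at at 72 h (-3.30). The red cells at 12 h, 1.35 for Utf1 and 3.18 for Itm2a 1451047_at, come from the ctrl array that stands apart.

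In control cells alone, the members took different paths after stimulation. Every middle ctrl array lay above every early one for Niban1 (13.1% of probe sets tested), and every late one for Niban1 and for Igfbp7 1423584_at, which did not pass the filter (19.0%). Both Ms4a4b probe sets were below all early arrays in the middle window (12.3%). On the log2(intensity + 32) scale the ctrl mean changed from early to middle by 3.81 for Lad1, 1.95 for Utf1, 1.85 for Niban1, 0.83 for Stap1 and -1.08 for Ms4a4b 1423467_at. The same change in the IL27 arm was 2.59, 1.47, 0.61, 0.10 and -2.34. Without the 12 h arrays the ctrl changes were 3.87, 2.15, 1.76, 0.81 and -1.13, and those with IL27 2.45, 1.42, 0.54, 0.06 and -2.31. The ctrl change of Itm2a 1451047_at went from 0.15 to 0.57. Utf1 then joined Niban1 with every middle ctrl array above every early one (18.0% of probe sets tested), and both Ms4a4b probe sets stayed below (16.2%). From middle to late the ctrl mean of Lad1 changed by -0.48 and that of the IL27 arm by -1.86 (-0.53 and -1.73 without 12 h), so the arms drew further apart. In bulk samples fewer cells with a transcript and less of it per cell cannot be told apart.

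The differences over the 18 times were compared between members by Pearson's r, as a description, since all members are read from the same arrays and the 12 h ctrl array enters every pair. Stap1, Niban1, Ms4a4b 1423467_at and Itm2a 1423608_at had r of 0.75 to 0.87 with each other, and 0.76 to 0.86 without 12 h. Igfbp7 was taken by 1423584_at. Lad1 had 0.73 with Igfbp7 and 0.67 with Utf1 (0.74 and 0.67 without 12 h), and 0.22 to 0.50 with the rest (0.35 to 0.63). Igfbp7 had -0.33 to 0.05 with Stap1, Niban1, Ms4a4b and both probe sets of Itm2a (-0.31 to 0.07).

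The 12 h pair decided the place of Utf1 and of the second Itm2a probe set. Over all times Utf1 had 0.12 to 0.33 with Stap1, Niban1, Ms4a4b and Itm2a 1423608_at and 0.90 with Itm2a 1451047_at, the other probe set that read low on the 12 h ctrl array. Without 12 h it had 0.60 to 0.74 with all 5. Itm2a 1451047_at had -0.06 to 0.25 with Stap1, Niban1, Ms4a4b and the first Itm2a probe set over all times, and 0.78 to 0.93 without 12 h. So the differences of Igfbp7 followed another course over the times than those of Stap1, Niban1, Ms4a4b and Itm2a with and without that pair, while the place of Utf1 depended on it.

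The genes most like each member were named by the same r over the 18 differences. Cd83, a surface protein of activated lymphocytes and dendritic cells, was closest to Lad1 (r = 0.954, late difference -2.73), followed by Ccdc50, Cd96 and Cmtm7 (0.914 to 0.894). Rcsd1, a regulator of actin capping protein, was closest to Ms4a4b (0.960) and to Itm2a (0.910), and second for Niban1 (0.886) after Mbp (0.886). Nsg2 was second for Ms4a4b (0.917) and Itm2a (0.883). Fhl2 was closest to Stap1 (0.866), ahead of Niban1, Mbp and Lrmp. Tnfsf11, the cytokine RANKL, was among those of Utf1 (0.907, late difference -2.49), whose list was led by Gripap1 (0.913) and also held Bnip2 (0.899) and Itm2a 1451047_at (0.897; 0.72 without 12 h). Eef1e1, Hmgn3, Sh2d1a and Tgs1 were closest to Igfbp7 (0.943 to 0.918), with late differences of only -0.16 to -0.54. These names depended on the measure: of the 28 choices 13 remained without the 12 h difference, 13 with Spearman's rho and 17 with 100 added in place of 32.

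The Mouse430A_2 arrays were not part of the choice of windows and gave the only test of the members. With 3 matched times and 2 residual degrees of freedom, limma called 0 of 10409 probe sets at an adjusted p under 0.05 (0.00%), and the smallest adjusted p was 0.185. At an unadjusted p under 0.05 there were 727 (6.98%), among them all 7 member probe sets that passed the filter there. The labels do not say whether these arrays share RNA with those of the other type. The members were named with results of both types known, so counts of members below a p line give no support. The member differences, averaged over the 3 times, were -2.78 ± 0.58 (SE) for Lad1 (limma adjusted p = 0.283), -1.22 ± 0.16 for Utf1 (0.185) and -1.16 ± 0.14 for Stap1 (0.185). They were -0.95 ± 0.21 for Niban1 (limma adjusted p = 0.295), -0.65 ± 0.08 and -0.87 ± 0.13 for the probe sets of Itm2a (0.185 for both) and -0.51 ± 0.21 for Ms4a4b 1423467_at (0.697). IL27 was below ctrl at all 3 times for 6 of the 7 (24.1% of probe sets tested). Ms4a4b was the exception, with 0.02 at 4 h. Leaving out the 48 h pair gave 308 calls of 10337 probe sets tested, with all 7 members among them. That fit had 1 residual degree of freedom and infinite prior degrees of freedom, so every probe set took its spread from the trend. Leaving out the 16 h pair gave 31 calls of 10441, with 3 members and 1 residual degree of freedom, and leaving out the 4 h pair gave 0.

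The ctrl levels did not take the same course on both array types. From 4 over 16 to 48 h, Stap1 in ctrl read 2018, 984 and 712 here, and 375, 559 (mean of duplicates) and 193 on HT_MG-430A. Lad1 in ctrl was higher at 48 than at 16 h here and lower on HT_MG-430A (916 against a mean of 1338). Lad1 read 47.4 at 0 h in ctrl. It was 2878 in ctrl against 1274 in IL27 at 4 h, 1802 against 341 at 16 h, and 3208 against 78.2 at 48 h. Igfbp7 1423584_at read 28.4 in ctrl at 0 h, 31.7 against 25.3 at 4 h, 30.3 against 25.4 at 16 h, and 772 against 28.4 at 48 h. The IL27 reading at 48 h equals the ctrl reading at 0 h and lies below the median of its array (74.5), so no fold is given. The probe set did not pass the filter and was not tested, and its other probe sets differed by -0.09 and 0.20 at 48 h. The late control-only signal of Igfbp7 was thus read on both array types by the same probe set.

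Stap1 read 2018 in ctrl against 942 in IL27 at 4 h, 984 against 342 at 16 h and 712 against 349 at 48 h. Niban1 read 95.3 against 44.8, 404 against 112 and 538 against 365 at the same times, with the widest gap at 16 h as on the other array type. Ms4a4b 1423467_at, which started from 19814 at 0 h, read 8131 against 8248, 5472 against 2321 and 7327 against 5823. At 16 h the differences were -1.23 for Ms4a4b here and -1.73 on HT_MG-430A, -1.60 on both for Niban1, and -0.84 and -0.83 for Itm2a 1423608_at. At 48 h the Lad1 difference was -4.88 here and -2.94 on HT_MG-430A. The Igfbp7 differences, -3.73 and -1.20, rest on IL27 readings below the array medians and depend on the added 32. The array types came in separate tables with different medians. Their values are set side by side, and agreement of levels or sizes between them was not tested.

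**Figure D3:**
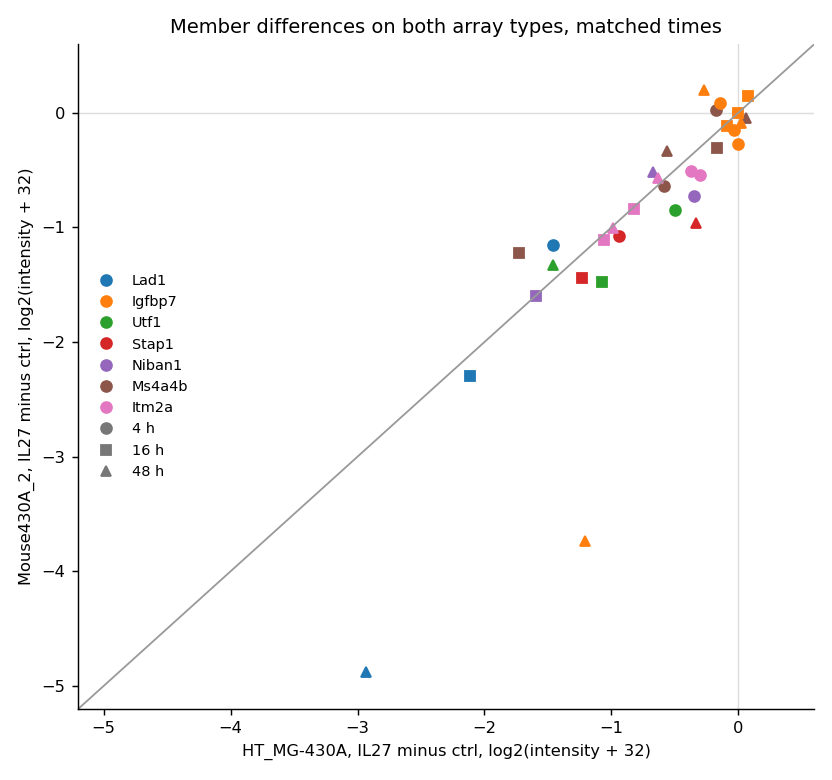
IL27 minus ctrl, as log2(intensity + 32) differences, on Mouse430A_2 (vertical axis) against HT_MG-430A (horizontal axis) for the 11 member probe sets at 4, 16 and 48 h, with the line of equal values. Lad1 and Igfbp7 at 48 h lie furthest below the line (-4.88 and -3.73 on Mouse430A_2, -2.94 and -1.20 on HT_MG-430A).

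The arrays titled GFPP and GFPN at 48 h were 1 each, so their values have no replicate check. None of the 11 member probe sets differed by 2-fold or more between them on the log2(intensity + 32) scale (0.0672% of probe sets tested did). Lad1 read 39.8 and 56.8, close to the 78.2 of the IL27 array at 48 h and far below the 3208 of ctrl. Igfbp7 1423584_at read 25.3 and 24.7, and Utf1 67.5 and 67.8 against 70.4 in IL27. The largest gap between the 2 arrays was in Ms4a4b 1423467_at, 4264 in GFPP and 6827 in GFPN. Itm2a 1451047_at, at 941 and 1144 against 2417 in IL27, was lower than the IL27 array by over 2-fold in both (0.173% of probe sets tested), with differences of -1.33 and -1.06. Its other probe set read 2856 and 3299 against 6300. Stap1 was also lower than in IL27, 178 and 194 against 349, by less than that line.

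**Figure D4:**
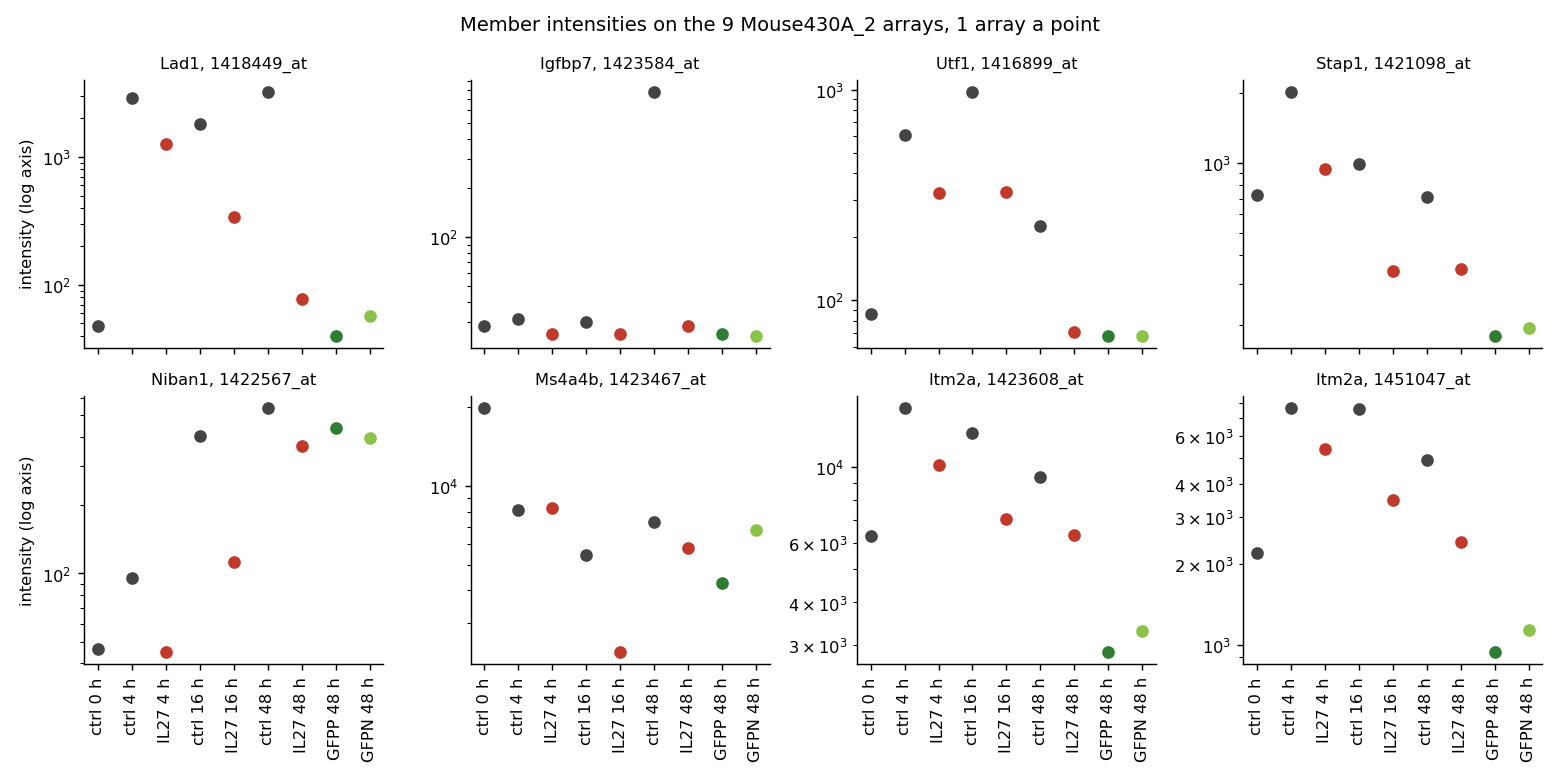
Intensity (log axis) of 8 member probe sets on the 9 Mouse430A_2 arrays, 1 array a point: dark for ctrl, red for IL27 and green for GFPP and GFPN. Lad1 and Igfbp7 are low on all 3 arrays other than ctrl at 48 h, and both Itm2a probe sets and Stap1 are lowest in GFPP and GFPN.

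Relatives of the members by family or role were examined on HT_MG-430A in the late window, where limma called 7.99% of probe sets tested lower and 7.39% higher at an adjusted p under 0.05. Of 16 listed Ms4a genes 11 were measured, and 4 probe sets of 3 genes passed the filter: 3 were lower and 1 higher. Ms4a4c, of the same family, was lower by both of its probe sets, with differences of -1.24 ± 0.13 (SE; limma adjusted p = 3.7e-09; 1420671_x_at) and -1.40 ± 0.15 (3.3e-09; 1450291_s_at). The second read 107 ± 68.1 (SD, n = 12) in late ctrl and 15.5 ± 2.61 in late IL27. In the platform's naming, probe sets ending in _s_at or _x_at may also bind related transcripts, so these values may not be of Ms4a4c alone. Ms4a6c was lower too, with -0.28 ± 0.08 (limma adjusted p = 0.017), a call that was lost with 100 added in place of 32 (-0.14, limma adjusted p = 0.065). Ms4a6b moved the other way, by 0.53 ± 0.11 (limma adjusted p = 5.2e-04), from 2385 ± 601 to 3417 ± 624. The Ms4a genes measured thus did not share a direction.

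In the Igfbp family the relatives were called in 1 direction only, with 0 probe sets lower and 6 higher. All 6 probe sets of Igfbp4, a secreted protein that binds insulin-like growth factors, were higher late, by 0.61 to 1.63. Probe set 1437405_a_at read 345 ± 121 (SD, n = 12) in ctrl and 1158 ± 621 in IL27, a difference of 1.53 ± 0.15 (SE; limma adjusted p = 7.9e-10). In the first hours both arms had been higher, with means of 1945 and 2008. So Igfbp4 was high in the first hours and higher again with IL-27. By contrast, Igfbp7 1423584_at was near the weakest signals at first and came up without IL-27. Igfbp5 differed by 0.03 ± 0.04 and was not called. The other 4 family genes and Igfbpl1 did not pass the filter.

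Itm2b and Itm2c, relatives of Itm2a, had 3 probe sets that passed, with late differences of -0.18 to 0.05, none called. In the middle window Itm2b 1417999_at was called lower, with -0.43 ± 0.12 (SE; limma adjusted p = 0.019). Without the 12 h arrays it was not called (-0.28, limma adjusted p = 0.10). Itm2b 1418000_a_at and Itm2c had -0.16 and -0.19 there and were not called. Itm2c was called lower with a block for the title suffix within each time (limma adjusted p = 0.020). Niban2 and Stap2 did not pass, with late means of 16 to 23. Of the genes that work with ladinin or in hemidesmosomes, 8 of 9 were measured and 7 probe sets of 3 genes passed. Plec, the linker plectin, was higher by 1 of its probe sets, by 0.33 ± 0.08 (SE; limma adjusted p = 0.0052). Itga6, which encodes an integrin chain, had -0.27 and -0.29 and was not called. With a replicate block for the title suffix within each time (chosen after seeing the data) both probe sets were called lower (limma adjusted p = 0.0086 and 0.026). Col17a1, Lamb3, Lama3 and Itgb4 had late means of 9 to 16 in both arms and did not pass the filter.

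**Figure D5:**
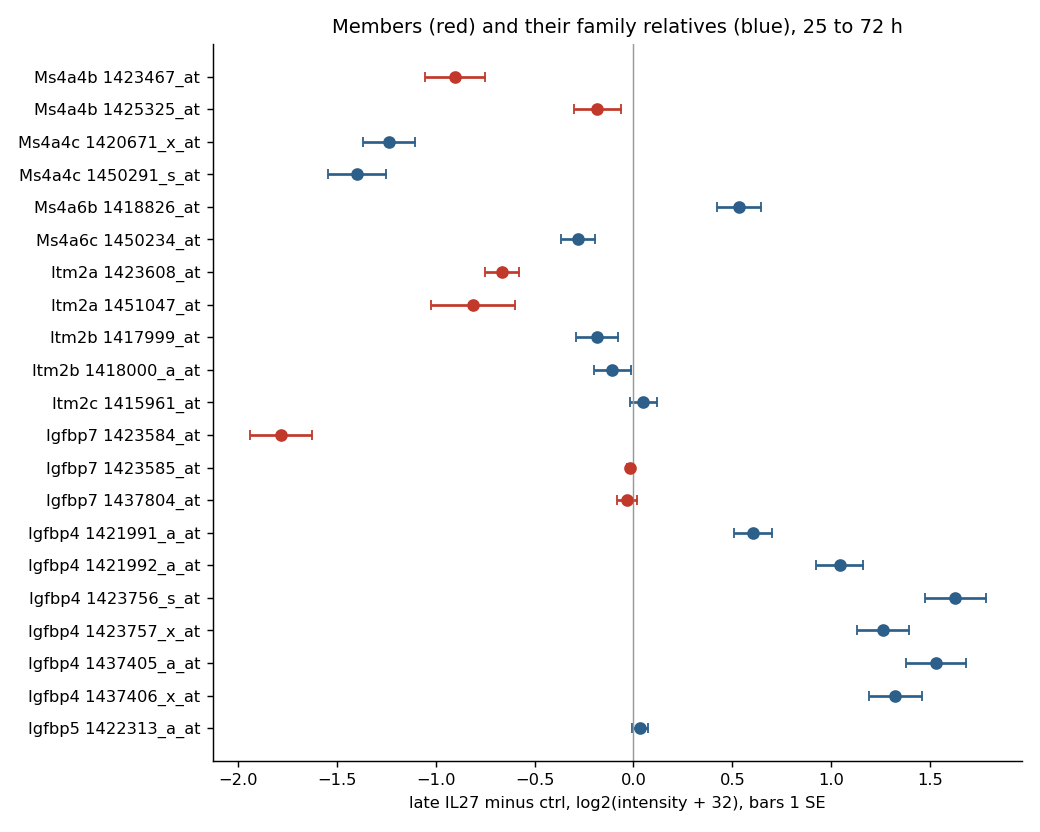
Late IL27 minus ctrl (25 to 72 h), as log2(intensity + 32) differences, with bars of 1 SE for all member probe sets of Ms4a4b, Itm2a and Igfbp7 (red) and the probe sets of their families that passed the filter (blue), 12 arrays per arm. Ms4a4c lies to the left of Ms4a4b, Ms4a6b lies right of 0, and all 6 probe sets of Igfbp4 lie right of 0 (0.61 to 1.63).

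Markers of other cells were looked at because several members are known from other tissues. Epithelial markers (Lad1 is an epithelial protein) summed to 77.4 to 131 on late ctrl arrays and 80.4 to 445 on late IL27 arrays, none passed the filter, and Krt8, Krt18, Krt5 and Cdh1 had late means of 9 to 15 in both arms. The higher sum came from Epcam, at 23.1 ± 13.6 (SD, n = 12) in ctrl and 70.2 ± 107 in IL27, opposite to Lad1. Pluripotency markers (for Utf1) had late means of 7 to 16 and sums of 45.2 to 53.2 and 49.1 to 53.0. Stromal and endothelial markers (for Igfbp7) summed to 139 to 172 and 141 to 183, with Col1a1, Col3a1, Pdgfra and Dcn at 10 to 12. Myeloid markers summed to 146 to 170 and 149 to 177. Of the probe sets in these 4 lists only 1, of Pecam1, passed the filter, so the sums rest mostly on readings near the weakest signals. The part of such cells in the member differences was not tested.

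Of the B cell markers only Ighm passed, lower late by 1 of 3 probe sets, with -0.43 ± 0.15 (SE; limma adjusted p = 0.039), while Cd79a, Pax5 and Ms4a1 had late means of 9 to 13. B cell markers in all summed to 1035 to 3439 in late ctrl and 892 to 2897 in late IL27. Cd8b1 was lower with IL-27, with -0.62 ± 0.09 (limma adjusted p = 3.0e-06), from 168 ± 63.2 (SD, n = 12) to 95.2 ± 26.8, with both Cd8a probe sets at 12 to 13. CD8 markers in all summed to 124 to 338 in late ctrl and 78.9 to 164 in late IL27, and the part of this in the member differences was not tested. NK cell markers summed to 66.0 to 118 and 66.9 to 657, with none passing. Of the 12 CD4 T cell marker probe sets, Cd4 was lower by 1 of its 2, with -0.30 ± 0.07 (limma adjusted p = 0.0016), and 4 were higher. Of the markers of resting cells, Ccr7 was lower, with -0.31 ± 0.10 (limma adjusted p = 0.030), and the other 4 probe sets were not called. Of these 4, Lef1 had -0.19, while both of Il7r (0.34 and 0.28) and Klf2 (0.42) were in the other direction. With a replicate block for the title suffix within each time (chosen after seeing the data), Klf2 and Il7r 1448576_at were called higher (limma adjusted p = 0.017 and 0.021). Markers of resting cells summed to 2830 to 6319 in late ctrl and 2335 to 5391 in late IL27. Ccr7 was the largest part of these sums, with late means of 3330 and 2592. The part of the B cell and resting cell markers in the late member differences was not tested.

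Some of these markers also moved in the middle window, where Stap1, Niban1, Ms4a4b and Itm2a 1423608_at were furthest below control and limma called 11.0% of probe sets tested in either direction (8.28% without 12 h). Cd8b1 was lower there, from 125 ± 19.3 (SD, n = 9) to 74.1 ± 23.2, with -0.58 ± 0.11 (SE; limma adjusted p = 1.6e-04). Ighm was lower by 1 of its 3 probe sets (1427351_s_at), with -0.65 ± 0.17 (limma adjusted p = 0.012). CD8 markers summed to 116 to 172 in middle ctrl and 66.1 to 149 in middle IL27, and B cell markers to 1212 to 3138 and 978 to 2091. Of the CD4 T cell markers, Thy1 was lower with -0.93 ± 0.12 (limma adjusted p = 7.6e-07), Cd4 1419696_at with -0.52 ± 0.08 (1.2e-05) and Cd3g with -0.36 ± 0.09 (0.0058), while Lat was higher, with 0.38 ± 0.08 (0.0014). Without the 12 h arrays these 6 probe sets stayed called in the same direction, Cd8b1 with -0.65 and Ighm with -0.58 (limma adjusted p = 4.4e-05 and 0.038), and Zap70 1422701_at was called lower as well (-0.53 in place of -0.06). The part of these markers in the member differences was not tested.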

How the data were processed

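The authors deposited 1 table per array type, holding linear intensity values by probe set and array. MAS5 is the only tool in the submitters' processing notes; neither its settings nor any later step are stated there. Of the probe sets on HT_MG-430A 3.99%, and of those on Mouse430A_2 35.4%, hold an intensity that recurs exactly on another array. The lowest intensity was 5.51 on HT_MG-430A and 9.78 on Mouse430A_2, and no further normalization was applied. Values were analysed as log2(intensity + 32) in limma 3.58.1 (R 4.3.3) with an intensity trend. Probe sets with 1 gene and a mean above the mean of the array medians were tested. The models took time as a factor, with an IL27 term per window on HT_MG-430A and 1 IL27 term on Mouse430A_2. Calls used Benjamini-Hochberg adjustment over all probe sets tested, at 0.05, and the procedure was tested on simulated data. Array types were tested apart. Gene names came from the platform tables, updated through gene identifiers. Named genes are the members, the 4 genes most like each, and listed relatives and markers. Members and lists were chosen with earlier results of these data known.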

Additional observations from a re-analysis of the deposited data

How the results depend on the processing

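The median late difference of the 8 member probe sets, -0.81, ran from -0.87 to -0.75 with each late time left out. It was -0.64 with 100 added and -0.87 with 1. A replicate block for the title suffix d left it at -0.81, which was fixed in advance, since both arms hold the suffix at the same times. The labels do not say what the suffix pairs. Its array-to-array differences in the arms correlated over probe sets at 0.19 to 0.74 at 7 duplicated times and at -0.05 at 30 h. At 2 h and 8 h, arrays of the same suffix in opposite arms correlated more (0.979 and 0.981, 0.985 and 0.993) than duplicates of an arm (0.977 and 0.977, 0.975 and 0.980). At 16, 30, 42, 54 and 72 h duplicates of an arm correlated more, and at 20 h the order was mixed. The main fit took no pairing, and whether arrays of the same suffix share a batch was not tested. A replicate block for the suffix within each time (chosen after seeing the data) gave 1110 lower and 942 higher late in place of 841 and 778, and 787 and 764 in the middle window in place of 526 and 636. With quantile normalization 2 member probe sets were lower at every time in place of 1, Itm2a 1423608_at joining Stap1, and without the 12 h arrays (chosen after seeing the data) also 2, Utf1 joining Stap1. On Mouse430A_2, leaving out 1 time gave 0 to 308 probe sets called and 0 to 7 member probe sets. The 31 without 16 h and the 308 without 48 h came from 1 residual degree of freedom, and in the latter the prior degrees of freedom were infinite, so every probe set took its spread from the trend. Without the 12 h arrays (chosen after seeing the data) 2 member probe sets in place of 0 had no overlap between arms in the middle window. The Ms4a count of 3 lower was 2 with 1 added, where a Ms4a4c probe set did not pass the filter, and 2 with 100, where Ms4a6c was not called. Of the 28 genes named as most like the members 13, 13 and 17 remained with Spearman's rho, without 12 h and with 100 added. Of 696 alternative values for single probe sets and for counts other than the main ones, 149 equalled the reported value. A further 504 moved by less than the spread of duplicates, kept their call or, for counts, changed by no more than a set ratio. The change from 841 to 1110 late calls is among these. Another 31 moved by more (22 of them with 1 or 100 added), 11 became calls or larger counts and 1 lost its call. Among the 149 are values that the choice could not change, such as window differences with the replicate block or late differences without 12 h.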
